A study of Mus musculus with 4 samples.

Results

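The genes described here are 10 genes tied to leukaemia of the HOXA9 type, namely Baalc, Mecom, Flt3, Cdk6, Hmga2, Hlf, Erg, Myb, Sox4 and Igf1r. Their members on the array are all probes outside the controls whose RefSeq transcript belongs to one of these genes, which gave 15 of the 55562 probes with a value in every line (10 of 20257 named genes). Baalc stands in the list because it had already been noted among the genes that are higher in the fusion-expressing clones, so its values are a description and its calls in the counts below are no evidence about it. Gene expression was measured once in each of 4 mouse embryonic stem (ES) cell lines on one-colour Agilent arrays. Parental ES is the EB3 line, which carries none of the expression vectors. Nup98-HoxA9 ES clone #1 and clone #9 are independent stable derivatives of it that express FLAG-tagged Nup98-HoxA9, a fusion of the N-terminal, FG-repeat part of the human nucleoporin Nup98 to the C-terminus of HoxA9, and HoxA9-Ct ES expresses that C-terminus, with its homeodomain, alone. The transgenes were brought in with a Tol2 transposon, and the transgenic lines were picked as colonies under hygromycin B, a selection that parental ES did not undergo, so that each transgenic line is 1 clone and clonal differences cannot be told apart from effects of the construct in HoxA9-Ct ES. All lines were grown on gelatin with leukaemia inhibitory factor (LIF).

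HOXA9 is a homeodomain transcription factor of blood progenitors whose expression normally falls as they mature. In acute leukaemia with a NUP98 fusion or an MLL rearrangement, HOXA genes stay on, and HOXA9, together with the cofactors MEIS1 and PBX3, binds enhancers of genes that keep progenitors dividing. Mecom (Evi1), Hlf, Erg, Myb and Sox4 encode transcription factors of stem and progenitor cells, Flt3 and Igf1r encode receptor tyrosine kinases, Cdk6 encodes a cyclin D-dependent kinase, Hmga2 an architectural chromatin protein of embryonic cells, and Baalc a small cytoplasmic protein whose high level is a known marker in acute myeloid leukaemia.

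In the Nup98-HoxA9 clones these genes split into 4 patterns. Baalc passed the background flag in both clones but not in parental ES. Hmga2 was higher in every transgenic line and by far the most in clone #1. Myb fell 4.89-fold and Cdk6 at least 2.66-fold, with lower values for Hlf and Sox4 as well. Igf1r moved little, and Mecom, Flt3 and Erg were not well above background in any line. By limma's fit, 2 of the 15 probes were called higher in the Nup98-HoxA9 clones than in parental ES (Baalc and 1 probe of Hmga2), where 0.781% of all probes were, and 2 were called lower (Cdk6 and Myb), where 0.625% of all probes were. Both clones exceeded parental ES by more than 2-fold at 1 of the 15 probes (Baalc), against 1.88% of all probes, and 4 (Cdk6, Hlf, Myb and a probe of Sox4) lay more than 2-fold below in both, against 2.09% of all probes.

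The promoters of the 4 members with an entry whose signal differed most from parental ES are shown first, so that their sequence can be set beside their values. The RefSeq promoter table (GRCm38.p6) holds 9 of the 10 genes with 12 promoters, and Baalc has no entry. Printed below are the 250 bases before the start of Myb (chr10:21160985-21161234, minus strand), Hlf (chr11:90390918-90391167, minus strand), Cdk6 (chr5:3343643-3343892, plus strand) and Hmga2 (chr10:120476470-120476719, minus strand), each 5′ to 3′ on the strand of the gene, with every CpG dinucleotide in capitals.
Myb: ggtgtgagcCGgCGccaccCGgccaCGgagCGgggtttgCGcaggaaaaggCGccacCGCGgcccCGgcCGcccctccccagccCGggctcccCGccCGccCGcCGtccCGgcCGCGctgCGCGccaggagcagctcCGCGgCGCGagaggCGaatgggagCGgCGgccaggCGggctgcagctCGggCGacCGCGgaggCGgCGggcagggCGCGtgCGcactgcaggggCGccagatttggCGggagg
Hlf: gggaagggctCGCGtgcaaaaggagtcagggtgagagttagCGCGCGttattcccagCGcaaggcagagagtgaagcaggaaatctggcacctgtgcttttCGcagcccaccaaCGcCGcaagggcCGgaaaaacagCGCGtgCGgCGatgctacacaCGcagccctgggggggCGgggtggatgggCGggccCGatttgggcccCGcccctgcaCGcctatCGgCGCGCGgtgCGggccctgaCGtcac
Cdk6: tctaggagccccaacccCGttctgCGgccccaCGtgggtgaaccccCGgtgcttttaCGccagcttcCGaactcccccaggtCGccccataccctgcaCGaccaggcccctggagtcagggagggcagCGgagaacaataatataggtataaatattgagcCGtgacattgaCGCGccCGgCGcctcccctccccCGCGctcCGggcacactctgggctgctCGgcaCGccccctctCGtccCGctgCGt
Hmga2: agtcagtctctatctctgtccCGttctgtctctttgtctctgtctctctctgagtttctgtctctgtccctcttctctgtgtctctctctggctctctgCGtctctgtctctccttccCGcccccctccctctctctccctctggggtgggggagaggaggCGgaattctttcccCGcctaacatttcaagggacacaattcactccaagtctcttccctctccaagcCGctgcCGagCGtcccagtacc
The stretch of Myb holds 40 CpG dinucleotides, a number reached by 1.31% of the 32851 promoters in the table, whose median is 6. Hlf has 26, Cdk6 22 and Hmga2 8. Among members not printed, Igf1r, which moved little, has 42, and Sox4 has 11. Whether CpG content goes with the values was not tested. The motifs TGATTTAT (a PBX-HOX site) and TTTATGG (a site of the HOXA9 type) were searched for on both strands and are in none of the 12 stretches, while 0.837% and 2.43% of all promoters hold them. TGACAG, the core of a MEIS site, is in 15.9% of all promoters and in 2 of these 12, a stretch of Mecom and a stretch of Erg. TGATTTAT and TTTATGG can overlap, since one ends as the other begins, and enhancers were not looked at.

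As a check of the labels, both probes of Hoxa9 were well above background in both Nup98-HoxA9 clones and in neither parental ES nor HoxA9-Ct ES. Whether these probes lie in the part of Hoxa9 that the HoxA9-Ct transgene carries is not given in the sources used here, so they do not check that line. On the cell type, 12 of 12 ES cell markers, Pou5f1, Nanog and Sox2 among them, were well above background in every line, with a median log2 ratio of -0.05 for the mean of the clones to parental ES. Of 11 blood cell markers with a probe, 7 or 8 were well above background per line, with a summed signal of 41590 in clone #1 and 44930 in clone #9 against 44054 in parental ES and 43167 in HoxA9-Ct ES. Csf3r, at 36428 to 39220, made up most of this sum, Itgam, Vav1, Gata1, Lyl1, Laptm5 and Coro1a also passed the background flag in all lines, and Ptprc, Spi1 and Mpo passed it in none. No probe was saturated. The Feature Extraction software called 49.9% to 53.0% of the spots of an array well above background.

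**Figure D1:**
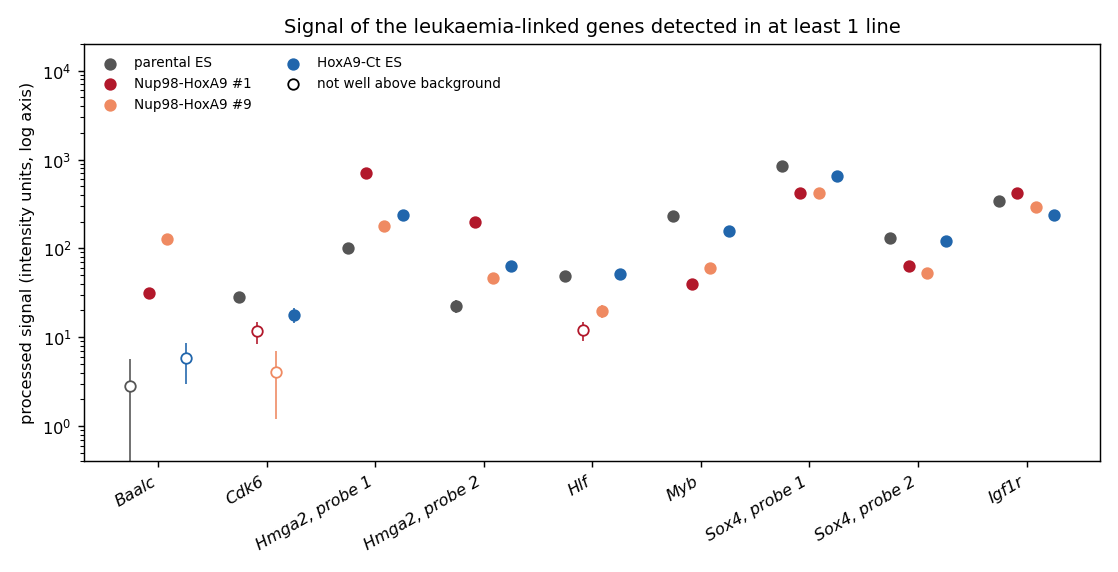
Processed signal (intensity units, log axis) of the 9 member probes that were well above background in at least 1 line, one point per line and probe. Bars give the error that the Feature Extraction software assigns to the spot (a bar that reaches 0 runs off the axis), and open points are not well above background. Baalc is well above background only in the 2 Nup98-HoxA9 clones, while both of these lie below parental ES for Cdk6, Hlf, Myb and both probes of Sox4.

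Baalc, on chromosome 15, is read by 1 probe (transcript NM_080640). Its processed signal, in intensity units with the error the software gives for the spot, was 31.6 ± 4.05 in clone #1 and 126 ± 12.9 in clone #9, but 2.82 ± 2.83 in parental ES and 5.79 ± 2.81 in HoxA9-Ct ES. Parental ES and HoxA9-Ct ES were not well above background, so a fold over them is a lower bound, with the dimmest spot that passed the background flag on their array in the denominator. For other genes, a probe's own signal took the place of that spot where it was higher. This was so for Hlf and Cdk6 in clone #1 and for Pdgfra and Igf1 in parental ES. There, "at least" marks a plain ratio to a signal that missed the flag. On this footing Baalc exceeded parental ES at least 2.76-fold in clone #1, at least 9.68-fold in clone #9 and at least 5.17-fold when the clones are averaged. Relative to HoxA9-Ct ES, the average of the clones was at least 5.02-fold higher. The clones themselves differed by 1.81 on the log2 scale, clone #9 being the higher. With the normexp background correction the bound for the mean of the clones was 2.07-fold. That correction adds an offset of 50 intensity units to every spot, which by itself shrinks the ratios of dim probes.

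Clone #9 has a generally raised signal on chromosome 15, the chromosome of Baalc. At 637 chromosome 15 probes that passed the background flag on every array, clone #9 exceeded clone #1 by a median of 0.38 on the log2 scale, against -0.06 over 15660 named probes of other chromosomes. A difference as large as that of Baalc was found at 7 of the 637 probes and at 88 of the 15660. The part of this shift in the difference between the clones at Baalc was not tested. Of the 3 protein-coding genes on each side, Klf10, Azin1, Atp6v1c1 and Slc25a32 were well above background everywhere, with log2 ratios to parental ES of -0.26 to 0.01 in clone #1 and 0.32 to 0.47 in clone #9. Fzd6, the direct neighbour, which encodes a Frizzled receptor of Wnt signalling, had processed signals of 13.2 and 23.0 in clones #1 and #9, where parental ES gave 3.01 and HoxA9-Ct ES 4.79. Only clone #9 was well above background there, at least 1.76-fold over parental ES, and the difference of clone #1 from parental ES was not measurable. Limma called Fzd6 higher in the clones than in parental ES (log2 ratio 2.48, SE 0.56, adjusted p = 0.00137). That fitted ratio rests in part on signals under the background flag. Cthrc1, a secreted protein, was well above background in HoxA9-Ct ES alone, at a signal of 19.6.

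**Figure D2:**
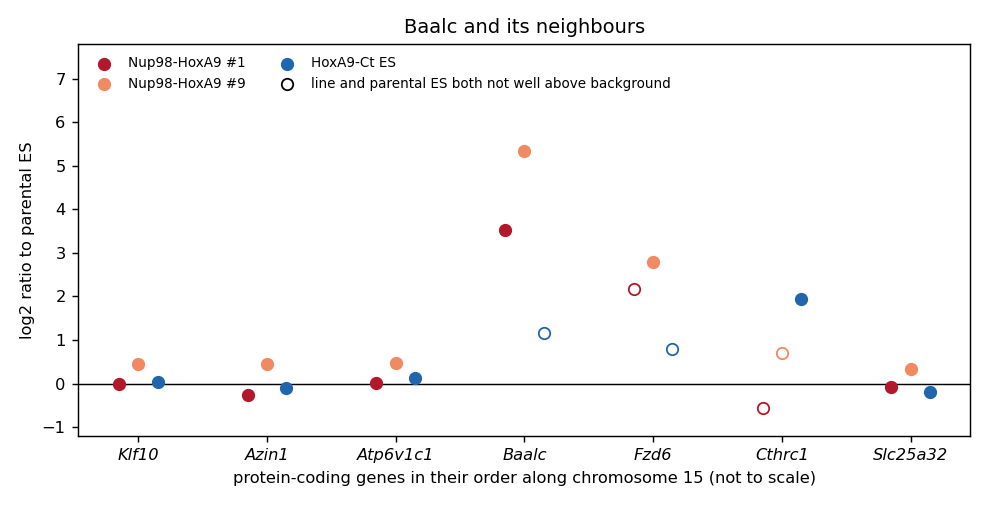
Log2 ratio of each line to parental ES for Baalc and the 3 protein-coding genes on either side of it, in gene order along chromosome 15 and read at the brightest probe. Open points mark ratios where neither line was well above background. Baalc stands above the others in both Nup98-HoxA9 clones, and the 4 genes bright in every line sit between 0.32 and 0.47 in clone #9. Fzd6 was well above background in clone #9 alone.

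The genes whose pattern over the 4 lines was most like that of Baalc, by the Euclidean distance between centred log2 values and among 26870 other probes well above background in both clones, were Olfr161 (distance 0.492), Slc51a (0.756), Pmp22 (0.810), Septin12 (0.833) and Cda (0.881). None of these 5 probes passed the background flag in parental ES, and that of Olfr161 sits in the final eighth of the array's rows. With 4 lines, this likeness is a description of the order clone #9, clone #1, then the lines without the fusion.

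Hmga2, on chromosome 10, is read by 2 probes of the same transcript, and both gave the same order of lines. The brighter probe had a processed signal of 702 ± 70.3 in clone #1, 238 ± 24.0 in HoxA9-Ct ES, 181 ± 18.2 in clone #9 and 99.9 ± 10.4 in parental ES. The other probe had 198 ± 20.0, 63.5 ± 6.99, 46.0 ± 5.36 and 22.6 ± 3.83 in the same order. Clone #1 thus stood apart from the rest, HoxA9-Ct ES came next, clone #9 after it, and parental ES was the lowest. Relative to parental ES the normalised signal was 7.25-fold and 9.06-fold higher in clone #1 at the brighter and the other probe, 1.64-fold and 1.85-fold in clone #9, and 2.61-fold and 3.09-fold in HoxA9-Ct ES. Averaging the clones, limma gave, relative to parental ES, log2 ratios of 1.79 (SE 0.56, adjusted p = 0.0791) and 2.03 (SE 0.56, adjusted p = 0.0232), so only the dimmer probe was called, and neither was with eBayes set to trend and robust. This SE is shared by all probes, whereas the SD between the 2 clones was 1.52 and 1.62 at these probes, and without clone #1 the ratio dropped to 0.71 and 0.89. A difference between the clones as large as at the brighter probe occurred at 0.482% of the 25529 probes that passed the background flag on every array. For HoxA9-Ct ES against parental ES, the log2 ratio of 1.39 (95% interval 0.13 to 2.65) and that of 1.63 (0.37 to 2.88) were not called (limma adjusted p = 1.00 and 0.708).

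Myb, the proto-oncogene of blood progenitors on chromosome 10, showed the clearest decrease. Its probe had a processed signal of 231 ± 23.3 in parental ES and 158 ± 16.0 in HoxA9-Ct ES, but 40.1 ± 4.89 in clone #1 and 59.6 ± 6.57 in clone #9. All 4 lines were well above background, and both clones lay far below both lines without the fusion. Normalised, Myb was 5.59-fold lower than parental ES in clone #1 and 4.28-fold lower in clone #9 (limma log2 ratio -2.29 for the mean, SE 0.56, adjusted p = 0.00504). Both clones were at least as far below parental ES as the smaller of these falls at 0.475% of the 30517 probes well above background in at least 1 line. Against HoxA9-Ct ES the clones were 3.66-fold lower, which missed the threshold (adjusted p = 0.0545). HoxA9-Ct ES itself differed from parental ES by -0.42 on the log2 scale, with a 95% interval of -1.68 to 0.84.

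Hlf, a PAR bZIP factor of blood stem cells on chromosome 11 that also forms a leukaemia fusion of its own, was also dimmer in both clones than in both lines without the fusion. The processed signal was 48.7 ± 5.71 in parental ES and 51.2 ± 5.84 in HoxA9-Ct ES, and fell short of both in clone #1 (12.0 ± 2.85) and clone #9 (19.7 ± 3.29). Only 1 of the 2 clones, clone #9, was well above background, at 2.73-fold below parental ES, while clone #1 was at least 3.94-fold below. Limma did not call the clones against parental ES (log2 ratio -1.71, SE 0.56, adjusted p = 0.110) but called them lower than HoxA9-Ct ES (-1.91, SE 0.56, adjusted p = 0.0437). This call was lost with 4 other scalings or sources of values and 2 other rules on spots and probes, at adjusted p between 0.0669 and 0.545.

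Cdk6, the kinase that drives progenitors through G1, is on chromosome 5 and was dim throughout. Its processed signal was 28.2 ± 4.27 in parental ES, 18.0 ± 3.59 in HoxA9-Ct ES, 11.7 ± 3.18 in clone #1 and 4.09 ± 2.89 in clone #9. Neither clone was well above background, so the limma fits of the clones rest in part on signals under the flag. The mean of the clones was at least 2.66-fold lower than parental ES (limma adjusted p = 0.0178) and at least 1.86-fold lower than HoxA9-Ct ES (adjusted p = 0.192). No other of the 15 probes sits, like this one, in the final eighth of the array's rows (12.4% of single-spot probes do), and the call was lost with eBayes with trend and robust on (adjusted p = 0.0552) and with the normexp correction (adjusted p = 1.00).

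Sox4, a SOX-C family factor that HOXA9 leukaemias express, lies on chromosome 13 and is read by 2 probes of the same transcript. Its brighter probe had 423 ± 42.4 and 418 ± 41.9 in clones #1 and #9, against 853 ± 85.4 in parental ES and 655 ± 65.6 in HoxA9-Ct ES. At the other probe the signals were 62.9 ± 6.84, 53.5 ± 5.95, 132 ± 13.6 and 121 ± 12.5 in this order. The clones were close to each other at both probes and below both other lines, by 2.10-fold and 2.36-fold against parental ES for their mean. With the SE of 0.56 shared by all probes, limma called neither probe (adjusted p = 0.842 and 0.547), and the 95% interval of the log2 ratio at the brighter probe ran from -2.16 to 0.02. The brighter probe was called with the normexp correction (log2 ratio -0.88, adjusted p = 0.0114). With its trend and robust options, eBayes called both probes (-1.07 and adjusted p = 0.00431 at the brighter probe). Other settings did not call the brighter probe: quantile normalization (limma adjusted p = 0.477), the filter on dim probes (0.602) and the series matrix (0.292). Nor was it called on scaling by array medians (0.855), on raising dim signals to a floor (0.190) or with outlier spots kept.

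Igf1r, the receptor of insulin-like growth factors on chromosome 7, was well above background in all lines, with a processed signal of 417 ± 41.8 in clone #1, 344 ± 34.5 in parental ES, 291 ± 29.2 in clone #9 and, lowest, 238 ± 23.9 in HoxA9-Ct ES. The clones lay on opposite sides of parental ES, at log2 ratios of 0.32 and -0.38, and the limma interval for their mean was -1.12 to 1.06. No change was detectable, and the interval leaves room for a moderate one in either direction.

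Mecom, Flt3 and Erg, with 2 probes each, were dim in all 4 lines. Mecom is the zinc finger factor that is overexpressed in aggressive myeloid leukaemia, Flt3 the receptor mutated in many acute leukaemias, and Erg an ETS factor of blood and endothelium. The processed signals of Mecom lay between 2.35 and 3.14, those of Flt3 between 2.38 and 4.25 and those of Erg between 2.24 and 3.28, in each case within the software's error of each other. No fold is given for these genes, and a rise that stays under the background of the arrays could not have been seen.

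**Figure D3:**
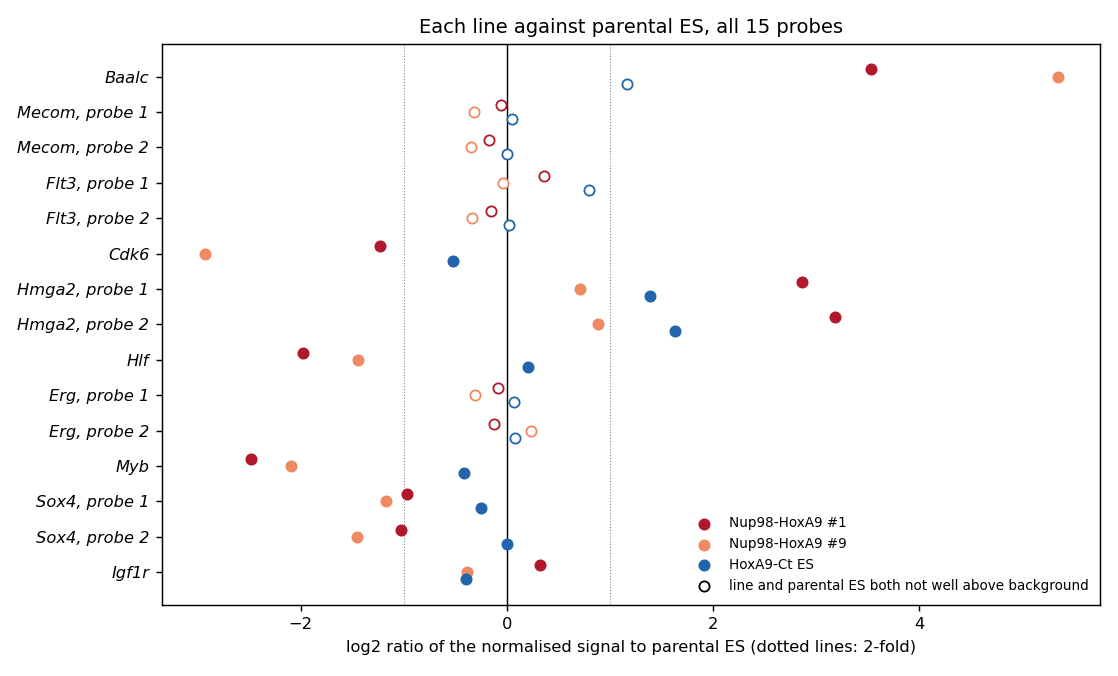
Log2 ratio of the normalised signal to parental ES in the 3 transgenic lines for all 15 probes, with dotted lines at 2-fold. Open points mark ratios where both lines are not well above background, which hold no measured change. Baalc and Hmga2 lie to the right, Cdk6, Hlf, Myb and Sox4 to the left in both clones, and HoxA9-Ct ES (blue) stays within 2-fold of parental ES at all filled points except those of Hmga2.

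In HoxA9-Ct ES, 0 of the 15 probes was called higher or lower than parental ES, where limma called 0.216% of all probes higher and 0.189% lower. At an unadjusted limma p under 0.05 there were 2 of the 15, both probes of Hmga2, against 3.51% of all probes, and limma with trend and robust on also called 0. Against HoxA9-Ct ES, Nup98-HoxA9 ES was called higher at 1 probe, Baalc (0.673% of all probes), and lower at 1, Hlf (0.688% of all probes). The median log2 ratio of the mean of the clones to parental ES was -0.19 over the 15 probes and -0.18 over all 55562 probes. Both sets hold many probes that missed the background flag in every line, 6 of the 15 and 25045 of all. With such probes left out, the median was -1.07 over the other 9 member probes and -0.06 over the 30517 that remained. The difference between those medians was not tested. The median of the 9 is the value of the brighter Sox4 probe, and Hmga2 and Sox4 enter with 2 probes each. Baalc was kept through the clones alone and Cdk6 through the lines without the fusion alone, so the choice of probes depends on the values compared. These comparisons share arrays: the parental array enters every ratio to parental ES, and the clones enter both of their comparisons.

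The genes that act with these members were read from 3 lists, of 24 relatives of the same protein families, 26 ligands, partners and inhibitors, and 26 other genes tied to leukaemia of the HOXA9 type, at the brightest probe of each. Of the 75 genes with a probe, limma called 3 higher and 3 lower in the Nup98-HoxA9 clones relative to parental ES, where 0.781% and 0.625% of all probes were called, and 3 higher and 1 lower relative to HoxA9-Ct ES, where 0.673% and 0.688% of all probes were. Between HoxA9-Ct ES and parental ES it called 0 of them, with 1 at an unadjusted p under 0.05. All these calls, and that of Fzd6, are from the main fit. They were lost with quantile normalization and with only probes well above background in at least 1 line, where limma called 0 of all probes. The median log2 ratio for the mean of the clones was 0.11 over the relatives, 0.06 over the ligands and partners and -0.11 over the other leukaemia genes. It was -0.18 over all probes, many of them at background, and -0.07 over the 25529 probes well above background on every array.

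Among the other leukaemia genes, Pbx3, the HOXA9 cofactor named above, rose most: its processed signal was 1897 and 2537 in clones #1 and #9 but 312 in parental ES and 250 in HoxA9-Ct ES, which is 6.80-fold for the mean of the clones over parental ES (limma adjusted p = 0.000158) and 7.74-fold over HoxA9-Ct ES. Meis1, its partner in that complex, had a log2 ratio of 0.04 in clone #1 and 0.30 in clone #9. Bcl11a, a zinc finger factor of lymphoid progenitors, fell from 50.8 in parental ES to 8.70 in clone #1 and 10.3 in clone #9, both not well above background, at least 5.09-fold (adjusted p = 0.00146). The adjusted p of Bcl11a thus rests in part on signals under the background flag. HoxA9-Ct ES lay between parental ES and the clones at 22.6, and the other probe of Bcl11a stayed below the background flag everywhere. In this list 1 of 25 genes was called higher and 1 lower.

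Among the relatives of the members, 1 of 24 genes was called higher and 1 lower. Pdgfra is a receptor tyrosine kinase of the same class as Flt3. Its signal was 14.2 in parental ES and 8.52 in HoxA9-Ct ES, both not well above background. It was 83.0 and 105 in clones #1 and #9, at least 6.48-fold over parental ES (limma adjusted p = 0.000287, in part from a parental signal under the flag). Prdm1, a zinc finger factor of the PRDM family to which Mecom belongs, fell 5.81-fold, from 157 to 27.9 in each clone (adjusted p = 0.000934), and was also lower than in HoxA9-Ct ES (109, adjusted p = 0.0124). Nfil3, a bZIP relative of Hlf, was 2.12-fold and 2.54-fold above parental ES in clones #1 and #9 and was not called. Sox11, the closest relative of Sox4, was 3.17-fold and 3.38-fold below and not called either, as in HoxA9-Ct ES, where it was 2.28-fold below. The other probe of Sox11 had log2 ratios of -1.32 in clone #1, which was not well above background, and -0.80 in clone #9. Insrr, a receptor of the Igf1r family, was well above background in clone #9 alone.

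Among ligands, partners and inhibitors, 1 of 26 genes was called in each direction. Igf2 is a growth factor that acts through Igf1r and whose gene is imprinted. Its signal was 3.05 in parental ES and 2.98 in HoxA9-Ct ES, not well above background. It was 20.8 in clone #1 and 62.6 in clone #9, at least 2.95-fold over parental ES for the mean of the clones. Limma fitted a log2 ratio of 3.52 (adjusted p = 1.39e-07). That ratio and its p rest in part on a parental signal under the background flag, so only the bound is given as a fold. Igf1, at its brightest probe, exceeded parental ES at least 2.20-fold in the clones and was not called, and 2 of its 3 other probes were not well above background in any line. Ccnd2, the cyclin D2 partner of Cdk6, fell from 1115 in parental ES to 383 in clone #1 and 238 in clone #9 (log2 ratio -1.93, SE 0.56, adjusted p = 0.0396), and HoxA9-Ct ES had a like signal of 388. The clones did not differ detectably from HoxA9-Ct ES at Ccnd2, with a log2 difference of -0.54. Lin28a, which encodes an RNA-binding protein that blocks the let-7 microRNAs known to repress Hmga2, was not called, at log2 ratios of -0.78 and -1.22 in the clones.

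**Figure D4:**
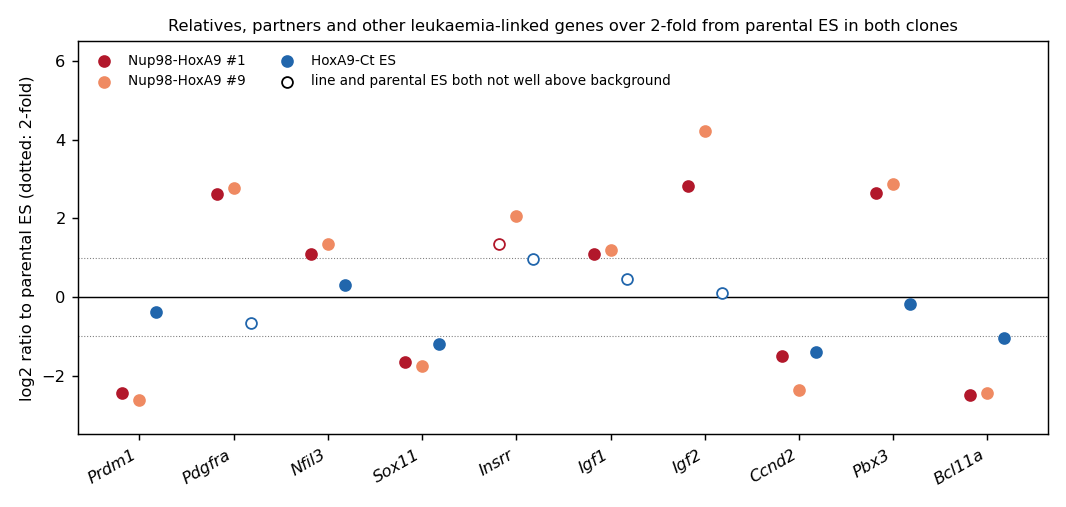
Log2 ratio to parental ES in the 3 transgenic lines for the 10 genes of the 3 lists that were more than 2-fold from parental ES in both Nup98-HoxA9 clones at their brightest probe, 6 above and 4 below. Open points mark ratios where both lines were not well above background. Pbx3, Pdgfra and Igf2 lie above 2 in both clones but near or below 0 in HoxA9-Ct ES, whereas Ccnd2, Sox11 and Bcl11a are below -1 in all 3 lines.

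The only replicated group is the pair of Nup98-HoxA9 clones, which leaves 1 residual degree of freedom per probe. All limma tests assume that parental ES and HoxA9-Ct ES vary as the clones do. The main fit pooled this spread over all probes, so a probe's own difference between the clones has no weight in its p. Quantile normalization, keeping only probes well above background in at least 1 line, and the series matrix left 0 member probes called in any comparison. The second of these settings tested 9 member probes, the others all 15. For Nup98-HoxA9 ES against parental ES, the unadjusted limma p was under 0.05 at 3 of 15, 5 of 9 and 6 of 15 member probes. Over all probes it was so at 5069 of 55562, 2224 of 30517 and 5092 of 55562. Under these settings Myb kept log2 ratios of -2.27, -2.29 and -2.22 (adjusted p = 0.425, 0.392 and 0.0935).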

How the data were processed

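Total RNA of each line was labelled with Cy3 and hybridised to 1 SurePrint G3 Mouse GE array. The authors used Agilent Feature Extraction 10.10.1.1, whose deposited output gives each spot a processed intensity, already background-subtracted and detrended, with flags (other, per the file headers). The deposited series matrix holds this intensity times 1 constant per array (3.19 to 3.63).

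Here log2 intensity minus the array's 75th percentile was used without outlier spots. Symbols came from RefSeq accessions (26762 of 55681 probes). Every member probe is 1 spot. Replicate spots (399 probes, 10 each) had a median SD of 0.105 to 0.118 (log2). Limma 3.58.1 (R 4.3.3; Python 3.11.15 elsewhere) was fitted with 3 groups to 55562 probes, adjusted by Benjamini-Hochberg, and a probe was called at an adjusted p under 0.05. The prior degrees of freedom were infinite, so all probes share 1 SE.

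Members, lists and tests were chosen with earlier results of these data known. Genes named outside the members are list genes called or over 2-fold from parental ES in both clones, neighbours of Baalc, the 5 genes most like it, Hoxa9 and cell type markers. Meis1, Lin28a and the promoters printed were picked after their values were seen. Alternatives changed the background correction (normexp on median pixels, offset 50), scaling, floor, filter, spots, source of values, threshold, probe rule or eBayes setting, or left out a clone.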

Additional observations from a re-analysis of the deposited data

Results flagged for a closer look

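At 2 member probes the Nup98-HoxA9 clones differed from HoxA9-Ct ES by limma's test of that difference. HoxA9-Ct ES is 1 clone, so a clonal difference cannot be told apart from an effect of its construct. For Baalc, the mean of the clones exceeded HoxA9-Ct ES by 3.27 on the log2 scale (higher in 2 of 2 clones). This is a description, since the gene was listed for its pattern. Neither line without the fusion was well above background there, so this fitted value is no bound. For Hlf, the mean of the clones minus HoxA9-Ct ES was -1.91 (SE 0.56, limma adjusted p = 0.0437, lower in 2 of 2 clones). Clone #1 was not well above background there, and under the alternatives the adjusted p ran from 0.000104 to 0.545.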

How the results depend on the processing

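For Nup98-HoxA9 ES against parental ES, 4 of the 15 probes were called. With quantile normalization, the filter on probes that were dim on every array (9 member probes left) or the series matrix, it was 0. Limma then called 0, 0 and 140 of all probes. The unadjusted p was under 0.05 at 3, 5 and 6 member probes, against 5069 of 55562, 2224 of 30517 and 5092 of 55562 probes. The remaining alternatives called 4 to 6 member probes, and from 709 (outlier spots kept) to 1243 (trend and robust on) of all probes. Against HoxA9-Ct ES 2 probes were called, and 1 with the median of each array, 1 with outlier spots kept and 4 with trend and robust on. Over all probes, 756, 696, 673 and 1284 were called in the same order. With quantile normalization, the filter or the series matrix it was 0. There the unadjusted p was under 0.05 at 3, 5 and 5 member probes, against 5373, 2136 and 5425 of all probes tested. HoxA9-Ct ES against parental ES gave 0 member probes under every setting run, where 0 to 225 of all probes were called. The cause was not tested. The number of probes over 2-fold higher in both clones (1) became 0 with normexp and 3 at 1.5-fold, and the number below (4) became 1 with normexp and 1 at 4-fold. Leaving out a clone gave 1 to 3 probes above, the extra ones being those of Hmga2 without clone #9, and 4 to 5 below. The bound of Baalc was 2.07-fold with normexp, 2.76-fold to 9.68-fold on leaving out a clone, and 5.09-fold to 5.40-fold elsewhere. Directions turned for Igf1r against parental ES with quantile normalization (0.0081) and the series matrix (0.035), and ran from -0.38 to 0.32 on leaving out a clone, and for Hmga2 against HoxA9-Ct ES without clone #1 (-0.67). The median log2 ratio of all probes, clones averaged, was -0.18, but -0.01 with quantile normalization and -0.04 with normexp. No test could be had without a clone, since no residual degree of freedom is left. No paired analysis was possible because parental ES and HoxA9-Ct ES have 1 array each.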
